A study of Mus musculus with 12 samples.

Results

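Fcrl5, Fcrl1, Fcrla, Zbtb32, Bhlhe41, Tnfsf13b and Tnfrsf13c are 7 genes tied to atypical B cells and to BAFF, the survival factor of B cells. They were taken by symbol from a lung count table of 55487 genes, in which each had 1 row, and all 7 passed the filter on low counts. The genes were picked because of their levels across age in these same libraries, so their age differences are given as a description and nothing is supported with them. The lungs came from C57BL/6NCr mice, a C57BL/6 substrain, at 6 months (6M), 12 months (12M), 20 months (20M) and 30 months (30M), with 3 libraries per age. The labels name no treatment, genotype or sex, and the RNA is from whole lung, so fewer cells of a type and less RNA per cell cannot be told apart. Libraries are named by age and replicate number, for example 30M_218.

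The Fc receptor-like (FCRL) genes encode relatives of the antibody receptors that sit mostly on or in B cells and tune signalling from the B cell receptor. Atypical or age-associated B cells are antigen-experienced B cells that gather with age and chronic stimulation and are known for the transcription factor T-bet, coded by Tbx21, and the integrin gene Itgax. BAFF, the product of Tnfsf13b, is made largely by myeloid and stromal cells and keeps mature B cells alive through BAFF-R, the product of Tnfrsf13c, which acts through the non-canonical NF-kappaB pathway.

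Library totals ran from 12152066 to 15058628 counts, and levels are CPM, that is counts scaled to a common library size, after TMM scaling. Lung markers were abundant throughout, the surfactant gene Sftpc averaging 16961 ± 5749 CPM at 30M and 22122 ± 1785 CPM at 6M (SD, n = 3 each). Some libraries stood apart. Across genes, the difference from the 6M mean increased with transcript GC content in 20M_221, 20M_222 and 30M_220 (Spearman rho = 0.358, 0.465 and 0.328), and 20M_222 carried skeletal muscle transcripts. A weaker trend in 12M_208 (rho = 0.229) also lay above the remaining libraries (-0.0869 to 0.0518). Library 12M_208 is not among the 3 libraries with a GC trend named below and was kept where those were left out. The 30M libraries differed in the level of B cell genes as well. This level is the geometric mean of 7 B cell genes (Ms4a1, Cd79a, Cd79b, Pax5, Cd22, Blk and Bank1). It was taken from log2 CPM with a prior count of 2. The mean was 12.7 CPM in 30M_216, 11.6 CPM in 30M_218 and 42.5 CPM in 30M_220. In 6M_201, 6M_202 and 6M_203 it was 38.8, 22.1 and 17.6 CPM.

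Fcrl5 stood apart from the other members at 30 months. It encodes a surface receptor with both activating and inhibitory signalling motifs, found in mice on B-1 and marginal zone B cells. The gene lies on chromosome 3 at 87435773 to 87500678 (plus strand, GRCm38, Ensembl ENSMUSG00000048031). Its level was 0.30, 0.41 and 0.49 CPM at 6M, 1.28, 0.25 and 1.10 CPM at 12M, 1.85, 1.13 and 0.89 CPM at 20M, and 0.65, 16.73 and 12.22 CPM at 30M. In reads, the 30M libraries 30M_216, 30M_218 and 30M_220 held 8, 204 and 189 counts, and the 6M libraries held 4, 5 and 6. Thus 2 of the 3 libraries of 30M carried nearly all of the counts at that age, the third 30M library lay within the 12M range, and the 30M and 6M libraries did not overlap. The fitted log2 difference of 30M against 6M was 4.60 (SE 0.95), the only one of the 7 called by edgeR's quasi-likelihood test at a Benjamini-Hochberg adjusted p under 0.05 (adjusted p = 0.0300). Of all 18407 tested genes, 1.96% were called in this comparison and 1.93% were called higher, and since the members were picked on it nothing is read from the count of 1. The call ended when 30M_218 was left out (log2 difference 3.99, adjusted p = 0.0802), without 30M_220 (adjusted p = 0.0648), or without 6M_201, 6M_202 or 6M_203 (adjusted p = 0.130, 0.137 and 0.169), and without 30M_216 the difference was 5.15. It also ended with no filter on low counts (adjusted p = 0.119), with a term for the 3 libraries with a GC trend (adjusted p = 0.0526) and without them, 30M_220 included (log2 difference 4.41, adjusted p = 0.116). At 20M against 6M the log2 difference was 1.67 (SE 0.99) with no overlap between the libraries and no call. At 30M against 20M it was 2.94 (SE 0.83), with 30M_216 below every 20M library and no call (adjusted p = 0.230, against 0.212% of all tested genes called).

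**Figure D1:**
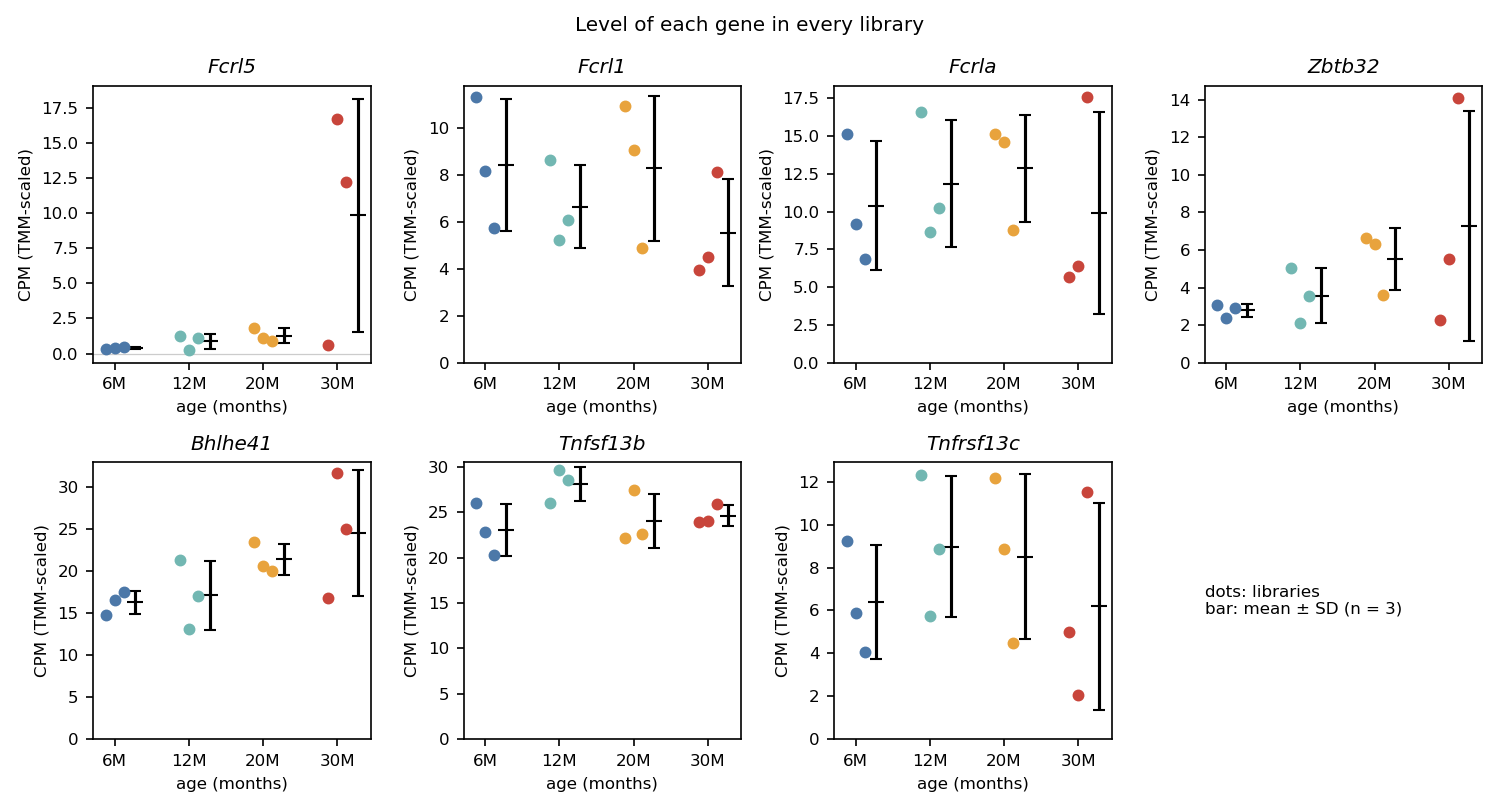
Level of each of the 7 genes in CPM (vertical axis, TMM-scaled, linear, a separate scale per gene) by age in months (horizontal axis). Dots are libraries and the bar beside them is the mean ± SD of 3. Fcrl5 is at 16.73 and 12.22 CPM in 2 of the 30M libraries and at most 1.85 CPM in every other library, while Tnfsf13b stays between 20.29 and 29.73 CPM.

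Fcrl1 and Fcrla, the other FCRL genes among the 7, had no such levels in 30M_218. Fcrl1, whose product is an activating coreceptor on mature B cells, is the next gene of the table upstream of Fcrl5 on the same strand of chromosome 3 (87376387 to 87402934, ENSMUSG00000059994). The 2 genes are 32838 bases apart, with 0 other genes of the table between them. Fcrl1 stood at 11.34, 8.17 and 5.74 CPM at 6M, 8.64, 5.22 and 6.08 CPM at 12M, 10.93, 9.06 and 4.87 CPM at 20M, and 3.95, 4.51 and 8.15 CPM at 30M. All ages overlapped, with the highest 30M library inside the 6M range, and the log2 difference of 30M against 6M was -0.60 (SE 0.37, not called). The library richest in Fcrl5, 30M_218, thus had the second lowest Fcrl1 level of the 12.

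Fcrla encodes an FCRL protein that stays inside B cells and binds immunoglobulin there, and lies on the minus strand of chromosome 1 (170917576 to 170927583, ENSMUSG00000038421). It stood at 15.15, 9.16 and 6.87 CPM at 6M, 16.60, 8.68 and 10.22 CPM at 12M, 15.16, 14.63 and 8.79 CPM at 20M, and 5.64, 6.40 and 17.59 CPM at 30M. The 30M libraries enclosed the whole 6M range, with 30M_220 highest of the 12 and 30M_216 lowest, and the log2 difference was -0.07 (SE 0.44). Leaving out 6M_201, 30M_216 or 30M_218 turned its sign. An overlapping gene on the same strand, Gm2962, had 126 counts over all libraries, and reads may be split between the pair.

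The remaining FCRL family genes were low or uncalled. Fcrls, which in mice is expressed by macrophages and microglia, averaged 6.41 ± 1.26 CPM at 30M and 4.50 ± 0.48 CPM at 6M (log2 difference 0.51, SE 0.24, adjusted p = 0.430 in edgeR). Fcrl6 and Fcrlb were too low to test. Fcrl6 was at 0.16, 0.08 and 0.13 CPM in the 30M libraries and had 0 counts in every 6M library, which allows up to 3 counts in each.

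Promoter sequence is shown for the neighbours Fcrl5 and Fcrl1, whose levels parted at 30M, and for Bhlhe41 and Tnfsf13b. Bhlhe41 and Tnfsf13b each have a window with 1 of the motifs searched, as has Fcrla, whose window is not printed. RefSeq (GRCm38.p6) promoter windows, 250 bases before to 50 after a transcription start, were found for all 7 genes, 9 windows in all. They were searched on both strands for 4 motifs: the E-box CACGTG, the interferon regulatory factor (IRF) repeat of GAAA, any 2 bases and GAAA again, the octamer ATGCAAAT bound by Oct factors, and the kappaB consensus of NF-kappaB. Of 32851 windows of the same length, 7.15%, 3.44%, 1.74% and 5.8% hold them in that order. The windows below are written 5′ to 3′ on the gene's strand, with motif matches in capitals.
Fcrl5, chr3:87435532-87435831, plus strand, no match: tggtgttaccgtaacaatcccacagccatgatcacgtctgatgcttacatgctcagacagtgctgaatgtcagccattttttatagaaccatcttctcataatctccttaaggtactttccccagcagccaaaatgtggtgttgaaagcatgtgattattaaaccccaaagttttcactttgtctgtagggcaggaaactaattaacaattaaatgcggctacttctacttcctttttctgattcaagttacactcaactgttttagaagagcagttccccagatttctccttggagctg
Fcrl1, chr3:87376137-87376436, plus strand, kappaB match: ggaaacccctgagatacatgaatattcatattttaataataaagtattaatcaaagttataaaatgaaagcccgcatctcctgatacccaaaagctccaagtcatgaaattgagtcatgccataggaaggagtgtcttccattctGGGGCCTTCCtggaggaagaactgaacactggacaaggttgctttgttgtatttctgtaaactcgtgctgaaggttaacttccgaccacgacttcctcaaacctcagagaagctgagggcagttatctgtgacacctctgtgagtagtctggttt
Bhlhe41, chr6:145865371-145865670, minus strand, E-box match: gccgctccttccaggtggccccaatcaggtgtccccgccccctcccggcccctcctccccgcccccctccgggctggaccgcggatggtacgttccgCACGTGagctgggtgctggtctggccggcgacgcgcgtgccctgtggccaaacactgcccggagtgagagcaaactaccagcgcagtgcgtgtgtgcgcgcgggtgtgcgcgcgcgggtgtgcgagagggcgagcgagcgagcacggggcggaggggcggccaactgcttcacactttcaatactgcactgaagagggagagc
Tnfsf13b second window, chr8:10006383-10006682, plus strand, IRF repeat match: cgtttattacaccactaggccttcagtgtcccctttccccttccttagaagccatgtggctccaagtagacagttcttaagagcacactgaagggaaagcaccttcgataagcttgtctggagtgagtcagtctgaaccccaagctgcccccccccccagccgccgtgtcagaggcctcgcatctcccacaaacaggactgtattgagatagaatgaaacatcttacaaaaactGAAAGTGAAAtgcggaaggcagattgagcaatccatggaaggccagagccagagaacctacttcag
The Fcrl1 match begins 105 bases before the start, that of Bhlhe41 153 bases before and that of Tnfsf13b 16 bases before. Fcrla holds an IRF repeat 192 bases before its start, and the windows of Zbtb32 and Tnfrsf13c, like that of Fcrl5, hold none of the 4. No match says only that these letters are not in the window, and a match describes the sequence only and is no measure of binding.

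The transcription factors Zbtb32 and Bhlhe41 were higher in some of the older libraries, without a call. Zbtb32 is a zinc-finger repressor that in mice limits the recall response of memory B cells, and lies on the minus strand of chromosome 7 (30589681 to 30598909, ENSMUSG00000006310). It stood at 3.06, 2.39 and 2.91 CPM at 6M, 5.03, 2.11 and 3.55 CPM at 12M, 6.62, 6.31 and 3.62 CPM at 20M, and 2.26, 5.49 and 14.10 CPM at 30M. All 20M libraries lay above all 6M libraries, whereas the 30M libraries spread from below the 6M range to the highest of the 12, in 30M_220. The log2 difference was 1.39 (SE 0.54) at 30M and 0.98 (SE 0.54) at 20M against 6M, neither called (adjusted p = 0.300 and 0.646 in edgeR). Without the 3 libraries with a GC trend, 30M_220 among them, the 30M difference was 0.47.

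Bhlhe41 is a basic helix-loop-helix repressor that mouse B-1a cells and alveolar macrophages need, and lies on the minus strand of chromosome 6 (145858243 to 145865558, ENSMUSG00000030256). It stood at 14.70, 16.59 and 17.46 CPM at 6M, 21.26, 13.05 and 17.06 CPM at 12M, 23.47, 20.63 and 20.01 CPM at 20M, and 16.77, 31.66 and 25.02 CPM at 30M. The 20M libraries again lay above every 6M library, and 30M_218 and 30M_220 were the highest of all, but 30M_216 lay within the 6M range. Its log2 difference was 0.59 (SE 0.23) at 30M and 0.39 (SE 0.23) at 20M against 6M, neither called. The antisense gene Gm43909 overlaps it with 636 counts over all libraries. The strand setting of the counting is not given in the sources used here. How reads of the shared stretch were assigned is therefore not known.

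At 20M against 6M, 3 of the 7 genes (Fcrl5, Zbtb32 and Bhlhe41) were higher without overlap, a pattern shown by 7.77% of all tested genes, and none was called (0 of 7 in edgeR, 0 at an unadjusted p under 0.05, 0 in DESeq2). Of all tested genes 0.0163% were called there. At 30M against 6M the share of genes higher without overlap was 9.89%, with Fcrl5 alone among the 7, and 3 of the 7 had an unadjusted p under 0.05 (Fcrl5, Zbtb32 and Bhlhe41), as did 2130 of all 18407 tested genes (11.6%). Fitted as a slope over the 4 ages, the log2 level of Fcrl5 had a slope of 0.19 per month (SE 0.03, adjusted p = 0.00603), that of Zbtb32 one of 0.059 (SE 0.019) and that of Bhlhe41 one of 0.026 (SE 0.0084). The slope was called for Fcrl5 alone, against 2.68% of all genes, and held its call with each library left out in turn (adjusted p = 0.00157 to 0.0260). Without 30M_216 the slopes of Zbtb32 and Bhlhe41 were called too (0.076 and 0.034 per month, adjusted p = 0.0240 and 0.0342 with edgeR). Without 30M_220 the slope of Zbtb32 was 0.029 per month (adjusted p = 0.763 with edgeR), and without the libraries with a GC trend it was 0.025. That of Bhlhe41 was 0.018 per month without 30M_218 (adjusted p = 0.392 with edgeR).

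The BAFF ligand and its receptor showed no age difference that passed the test. Tnfsf13b lies on the plus strand of chromosome 8 (10006467 to 10039072, ENSMUSG00000031497). It stood at 26.05, 22.86 and 20.29 CPM at 6M, 26.06, 29.73 and 28.63 CPM at 12M, 22.16, 27.50 and 22.59 CPM at 20M, and 23.95, 24.03 and 25.99 CPM at 30M. The 3 libraries of 30M sat inside the 6M range, and the log2 difference was 0.10 (SE 0.14). Only at 12M were all libraries above those of 6M, the lowest at 26.06 CPM beside 26.05 CPM in 6M_201, with a log2 difference of 0.29 (SE 0.14, adjusted p = 0.988 in edgeR) and a share of 6.3% for all tested genes. No member was called at 12M (0 in edgeR, 0 at an unadjusted p under 0.05, 0 in DESeq2), against 0% of all tested genes (662 at an unadjusted p under 0.05, 5 in DESeq2). An antisense gene, Gm44789, overlaps Tnfsf13b with 8 counts in all.

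Tnfrsf13c lies on the minus strand of chromosome 15 (82221743 to 82224369, ENSMUSG00000068105). It stood at 9.25, 5.86 and 4.04 CPM at 6M, 12.32, 5.73 and 8.87 CPM at 12M, 12.16, 8.88 and 4.50 CPM at 20M, and 5.0, 2.05 and 11.51 CPM at 30M. The 30M libraries enclosed the 6M range, 30M_218 being the lowest of the 12, and the log2 difference was -0.04 (SE 0.55). Its sign turned when 6M_201, 30M_216 or 30M_218 was left out. The ligand thus varied little between libraries, and the receptor varied more than 2-fold within each age.

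Per kilobase of exon, Fcrla was the most abundant of the 7, at 5.66 ± 3.83 CPM per kb at 30M and 5.96 ± 2.45 at 6M (SD, n = 3). Over all 12 libraries the mean levels were 6.44 CPM per kb for Fcrla, 3.67 for Tnfrsf13c, 3.64 for Tnfsf13b, 2.95 for Bhlhe41, 2.03 for Zbtb32, 2.03 for Fcrl1 and 0.893 for Fcrl5. Ranges of neighbours in this order overlapped over the libraries for every pair. At 30M, Fcrl5 averaged 2.84 ± 2.38 CPM per kb, which lay between the levels of Zbtb32 (3.09 ± 2.60) and Fcrl1 (1.56 ± 0.64), while at 6M it averaged 0.115 ± 0.027 and was the lowest of the 7.

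Whether the members follow a library's B cell genes was asked within ages, which does not use the age difference they were picked on. Each gene's log2 deviation from its age mean was set against the mean deviation of the 7 B cell genes over 12 libraries, with a two-sided permutation test within ages and adjustment over 8 relations. Fcrla followed the B cell genes most closely (Pearson r = 0.984, p = 0.00329, adjusted p = 0.0109; Spearman rho = 0.923, adjusted p = 0.0126). Fcrl1 (r = 0.922, adjusted p = 0.0109; rho = 0.895, adjusted p = 0.0126) and Tnfrsf13c (r = 0.907, adjusted p = 0.0109; rho = 0.909, adjusted p = 0.0126) did so too, followed by Zbtb32 (r = 0.812, adjusted p = 0.0285; rho = 0.818, adjusted p = 0.0226). For Fcrl5 the relation was r = 0.358 (rho = 0.259, adjusted p = 0.825 for r by permutation), for Bhlhe41 r = 0.208 (rho = 0.070, adjusted p = 0.831) and for Tnfsf13b r = 0.463 (rho = 0.399, adjusted p = 0.209). Against the 10 monocyte and macrophage genes Tnfsf13b had no relation past the threshold (r = -0.03, rho = -0.10, permutation p = 0.906). Differences between these coefficients were not tested.

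Without the 2 libraries farthest from the median of the B cell genes, 6M_201 and 30M_220, r was 0.9504 for Fcrla, 0.903 for Fcrl1, 0.801 for Tnfrsf13c and 0.638 for Zbtb32. The adjusted permutation p values were then 0.091 for the first 3 and 0.152 for Zbtb32, so the calls did not hold without those libraries. Fewer libraries at 6M and 30M also allow fewer rearrangements within an age, and the coefficients stayed positive. Without the 3 libraries with a GC trend, r was 0.976 for Fcrla, 0.951 for Fcrl1, 0.821 for Tnfrsf13c and 0.445 for Zbtb32 over 8 libraries, with an adjusted permutation p of 0.113 for the first 3 and 0.390 for Zbtb32.

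**Figure D2:**
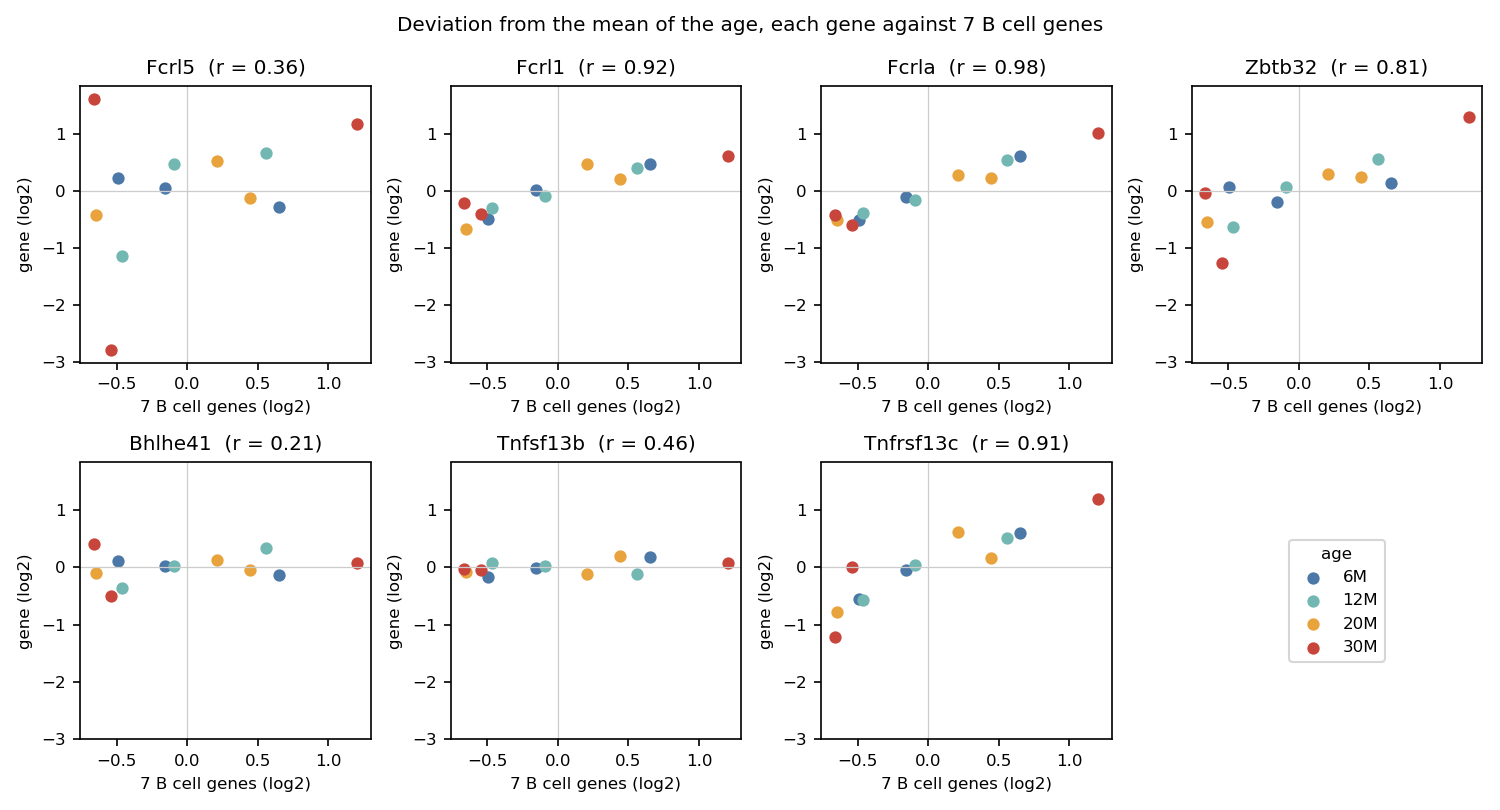
Deviation of each gene from its age mean (vertical axis, log2 CPM) against the mean deviation of 7 B cell genes (horizontal axis, log2 CPM), 1 dot per library, coloured by age, with Pearson r above each panel. Fcrla, Fcrl1 and Tnfrsf13c lie along a line (r = 0.98, 0.92 and 0.91). Fcrl5 is high in 30M_218 at a low level of the B cell genes and low in 30M_216 at a like level.

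The members were also set against the 7 B cell genes as a ratio within each library, taken from log2 CPM with a prior count of 2, which raises the ratio of a low gene such as Fcrl5 at 6M above that of its CPM. Fcrl5 and Zbtb32 lay higher at 30M in every library. The ratio for Fcrl5 was 0.063 in 30M_216, 1.451 in 30M_218 and 0.291 in 30M_220, against 0.012, 0.026 and 0.036 in the 6M libraries. The B cell genes of 30M_216 and 30M_218 were alike in level, while Fcrl5 stood at 0.65 CPM in 30M_216 and 16.73 CPM in 30M_218. For Zbtb32 the ratio was 0.190, 0.485 and 0.335 at 30M, against 0.083, 0.115 and 0.174 at 6M. The ages thus did not overlap although the CPM did. In 30M_216 the CPM of Zbtb32 (2.26) was below every 6M library (2.39 to 3.06), so the higher ratio there came from its denominator. The 7 B cell genes stood at 12.7 CPM in 30M_216 and at 17.6 to 38.8 CPM at 6M. The ratio of Bhlhe41 averaged 1.55 ± 1.09 at 30M and 0.714 ± 0.312 at 6M, and that of Tnfsf13b 1.53 ± 0.80 at 30M and 0.960 ± 0.254 at 6M. Both were above every 6M library in 30M_216 and 30M_218, the 30M libraries with the lower levels of the 7 B cell genes, and within the 6M range or below it in 30M_220. The Fcrla ratio averaged 0.479 ± 0.075 at 30M and 0.405 ± 0.014 at 6M, that of Fcrl1 0.307 ± 0.104 at 30M and 0.336 ± 0.040 at 6M, and that of Tnfrsf13c 0.290 ± 0.11 at 30M and 0.251 ± 0.018 at 6M (SD, n = 3). These ratios use the age difference and carry no test. How many of all tested genes have such a ratio without overlap was not counted, so nothing is read from the lack of overlap.

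**Figure D3:**
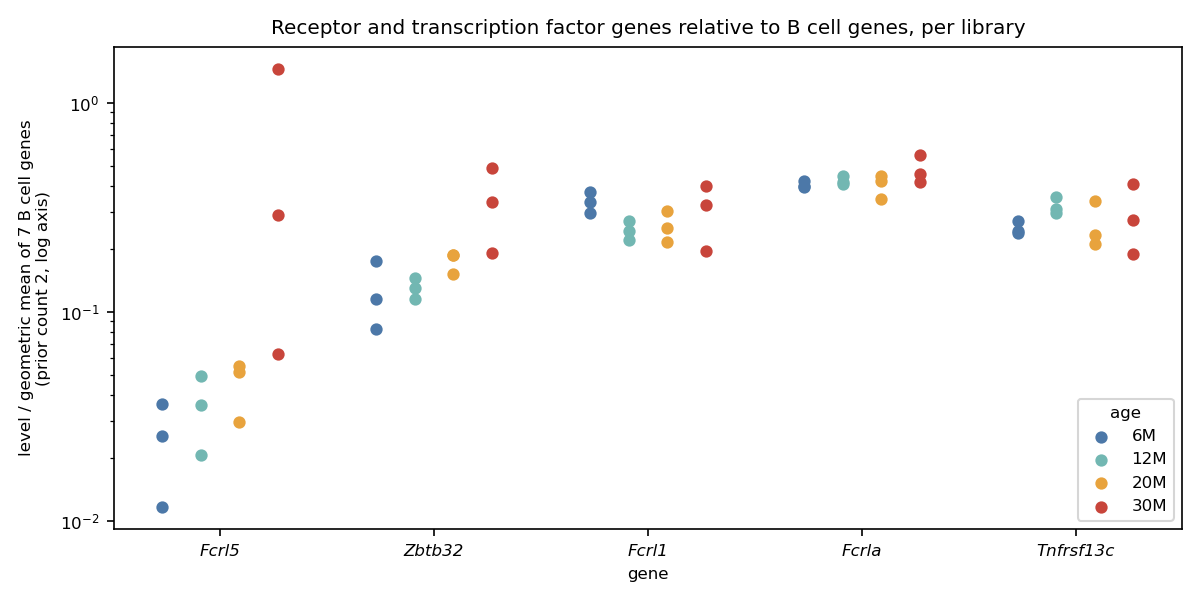
Level of 5 members divided by the geometric mean of 7 B cell genes in the same library, both from log2 CPM with a prior count of 2 (vertical axis, log scale, no unit), by gene (horizontal axis) and age (colour, young to old from left to right), 1 dot per library. Fcrl5 spans 0.063 to 1.451 at 30M and 0.012 to 0.036 at 6M, while Fcrla spans 0.345 to 0.563 over all ages.

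The wider BAFF and APRIL system, which signals through receptors of the TNF family to the kinase NIK and the NF-kappaB subunits, had 10 of its 11 other genes tested. None was called at 30M against 6M (0 in edgeR, 2 at an unadjusted p under 0.05, 0 in DESeq2), and the median log2 difference was 0.23, against 0.00284 for all tested genes. Relb, the NF-kappaB subunit of the non-canonical arm, stood at 29.3, 28.05 and 35.7 CPM at 30M and 21.3, 24.4 and 14.4 CPM at 6M (log2 difference 0.63, SE 0.20, adjusted p = 0.168). Nfkb2, which encodes its partner, had a log2 difference of 0.54 (SE 0.19, adjusted p = 0.224), and Map3k14, which encodes NIK, one of 0.37 (SE 0.17, adjusted p = 0.449), both with edgeR. These 3 genes were higher in all 30M than in all 6M libraries, as were 9.89% of tested genes. Of the 10 genes 8 had a positive and 2 a negative log2 difference (Birc2 and Chuk). Chuk, named after its values were seen, encodes the kinase IKK-alpha of the same arm and was lower in all 30M libraries, at 71.7, 71.8 and 65.4 CPM at 30M and 89.9, 80.8 and 82.1 CPM at 6M (log2 difference -0.28, SE 0.22, adjusted p = 0.748 with edgeR), as were 8.66% of tested genes. Tnfrsf13b, the gene of the shared BAFF and APRIL receptor TACI, averaged 15.5 ± 1.68 CPM at 30M and 10.5 ± 4.43 CPM at 6M with overlap (log2 difference 0.56, SE 0.32). Tnfsf13, which encodes APRIL, averaged 3.20 ± 0.50 CPM at 30M and 2.51 ± 0.52 CPM at 6M. Tnfrsf17, the gene of the plasma cell receptor BCMA, was too low to test, at 0.52 ± 0.27 CPM at 30M and 0.26 ± 0.16 CPM at 6M.

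Of 15 B cell genes 12 had a negative log2 difference at 30M against 6M and 3 a positive one (Cd22, Spib and Ighm), where 49.5% of all tested genes had a negative one. Of the 15 genes 0 were called in edgeR (2 at an unadjusted p under 0.05, 1 in DESeq2, Ighm), with a median log2 difference of -0.14. By library, the median log2 difference from the 6M mean was -0.76 in 30M_216, -1.09 in 30M_218 and 0.69 in 30M_220. It ran from -0.45 to 0.59 in the 6M libraries. With 1 library left out, the difference of Ms4a1 ran from -1.09 to 0.28 and that of Bank1 from -0.74 to 0.44, so their signs turned. Ighm, the constant region of IgM, had a log2 difference of 2.88 (SE 0.71, adjusted p = 0.0762 with edgeR). It stood at 1808, 1194 and 1126 CPM at 30M and 209.2, 216.1 and 133.8 CPM at 6M. At 12M it was at 899.6, 223.4 and 2352 CPM and at 20M at 1600, 708.5 and 2401 CPM. Thus 12M_208 and 20M_222 lay above every 30M library. Cr2, a complement receptor of follicular and marginal zone B cells, stood lower in every 30M library, as did 8.66% of tested genes, at 1.77, 1.89 and 8.34 CPM, against 15.4, 9.49 and 8.89 CPM at 6M (log2 difference -1.47, SE 0.62, adjusted p = 0.378). Ighd and Ly6d, genes of naive and developing B cells, had log2 differences of -1.16 (SE 0.59) and -0.54 (SE 0.27), not called.

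Of 14 genes known from age-associated B cells, 4 were called higher at 30M and 0 lower, where 1.93% of all tested genes were called higher. Their median log2 difference was 1.08 over the 14. The 4 called genes are given first. They were Tlr7, an RNA sensor (log2 difference 1.81, SE 0.31, adjusted p = 0.00976), Tbx21 (1.38, SE 0.28, adjusted p = 0.0251), the chemokine receptor Cxcr3 (1.72, SE 0.37, adjusted p = 0.0300) and the integrin Itgam (1.58, SE 0.35, adjusted p = 0.0411), all with edgeR. Tbx21 stood at 5.0, 3.77 and 4.07 CPM at 30M and 1.57, 1.40 and 1.94 CPM at 6M, so that unlike Fcrl5 it was high in 30M_216 too. Itgax, named after its values were seen, stood at 38.5, 59.6 and 81.6 CPM at 30M and 37.4, 33.8 and 24.5 CPM at 6M. It was higher without overlap, as were 9.89% of tested genes, and was not called (log2 difference 0.91, SE 0.24, adjusted p = 0.0757 with edgeR). Of the 14 genes 3 had negative differences, none called. Nt5e (-0.44) and Sox5 (-0.34) were lower in all 30M libraries, as were 8.66% of tested genes, and Fas (-0.41) overlapped. The genes that rose are also used by macrophages, T cells and NK cells. The call of Tlr7 ended without 6M_202 or 6M_203 (adjusted p up to 0.0584), and that of Cxcr3 without either of these, 30M_218 or 30M_220 (up to 0.177). That of Tbx21 ended without any 6M library, 30M_216 or 30M_220 (up to 0.135). Itgam kept its call only without 12M_208, 20M_221 or 20M_222 (up to 0.216 otherwise).

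Some markers of monocytes, macrophages and plasma cells were also higher at 30M than at 6M. Of 10 monocyte and macrophage genes 6 were called higher (median log2 difference 1.90), where 1.93% of all tested genes were. The summed level of the 10 genes ran from 720 to 1182 CPM at 30M and from 308 to 400 CPM at 6M. It was highest in 30M_216, the 30M library with the least Fcrl5. Of 14 plasma cell genes edgeR called 3 higher, Igha, Igkc and Jchain, with log2 differences of 2.22, 3.28 and 3.63 (adjusted p = 0.00495, 0.0420 and 0.0453). Of the 14 log2 differences 12 were positive and 2 negative. At an unadjusted p under 0.05 there were 8 genes in edgeR, and DESeq2 called 5, Ighg2b and Ighg2c included. Ighg2c averaged 249.9 ± 163.1 CPM at 30M, 248.1 ± 196.2 CPM at 20M and 4.78 ± 0.48 CPM at 6M. The summed level of the list ran from 2237 to 2817 CPM at 30M and from 786 to 810 CPM at 6M. At 12M it ran from 908 to 2871 CPM and at 20M from 1134 to 3041 CPM. In 12M_208, 20M_213 and 20M_222 (2871, 3041 and 2989 CPM) it was above every 30M library. Igha averaged 96.7 ± 15.7 CPM at 20M and 73.1 ± 34.6 CPM at 30M. Igha kept its call with each library left out, whereas Igkc kept it only without 12M_207, 12M_208, 20M_221 or 20M_222 and Jchain only without 12M_207, 12M_208 or 20M_221 (adjusted p up to 0.227 and 0.220 otherwise). Without the 3 libraries with a GC trend, the calls of Tbx21, Cxcr3, Il10, Igkc and Jchain ended and those of Tlr7, Itgam, Igha and Cxcl13 held. With a term for these libraries in place of leaving them out, the calls of Itgam, Cxcr3 and Igkc ended. With no filter on low counts those of Itgam, Cxcl13, Tbx21, Igkc and Jchain ended. With only the 2 ages fitted those of Tbx21 and Cxcr3 ended, and no B-1 cell gene was called. Of these 2 lists no gene was at 0 counts in any library, and their part in the levels of Fcrl5, Zbtb32 and Bhlhe41 was not tested.

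Among 8 genes of B-1 cells, the innate-like B cells that use Bhlhe41, Il10 alone was called higher, where 1.93% of all tested genes were. This gene of an inhibitory cytokine, which many immune cells make, stood at 0.56, 2.38 and 2.39 CPM at 30M and 0.07, 0.00 and 0.08 CPM at 6M (log2 difference 4.85, SE 0.97, adjusted p = 0.0221 with edgeR). The 6M libraries held 2 of its counts in all and the 30M libraries 73, a ratio of 34.5 per scaled library size with a 95% exact interval of 9.22 to 290 that covers counting error only, and the fitted value depends on the prior count. Like Fcrl5 it was higher in 30M_218 and 30M_220 than in 30M_216, and leaving out either of these, or any 6M library, ended its call (adjusted p up to 0.119). Cd5, a surface marker of B-1a cells and T cells, had 3.39, 4.67 and 7.63 CPM at 30M and 4.18, 2.15 and 2.51 CPM at 6M, with overlap and no call. Of 7 tested lymphoid organiser genes edgeR called Cxcl13, the chemokine that draws B cells into follicles, which stood at 37.7, 22.6 and 46.0 CPM at 30M and 2.31, 6.85 and 2.43 CPM at 6M (log2 difference 3.20, SE 0.62, adjusted p = 0.0233; up to 0.161 with 1 library left out, the call ending without 6M_201, 6M_203, 30M_216 or 30M_220). DESeq2 called 3, Cxcl13, Ccl19 and Glycam1. Ccl19, a chemokine of T cell zones, had 2.50, 4.51 and 1.42 CPM at 30M and 0.22, 0.41 and 0.24 CPM at 6M (log2 difference 3.22, adjusted p = 0.195 with edgeR). Glycam1, a ligand for lymphocyte homing, had 0.887, 0.656 and 0.129 CPM at 30M, 1.73, 0.337 and 2.03 CPM at 12M and no counts at 6M. Ccl19 was at 5.32 CPM in 12M_208 and 4.62 CPM in 20M_213, above every 30M library. Of 5 tested germinal centre genes 0 were called in edgeR (0 at an unadjusted p under 0.05, 0 in DESeq2).

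Among the other lists 4 of 12 interferon-stimulated genes, 3 of 10 T cell genes and 2 of 6 dendritic cell genes were called higher. The share of all tested genes called higher at 30M against 6M was 1.93%. None was called of 7 NK cell, 6 neutrophil, 5 tested skeletal muscle and 8 lung tissue genes (at an unadjusted p under 0.05 these numbered 4, 0, 0 and 0 in edgeR, and DESeq2 called 1, 0, 0 and 0). The interferon-stimulated genes summed to 1680 CPM in 30M_216, 871 CPM in 30M_218 and 539 CPM in 30M_220, against 324 to 374 CPM at 6M, the reverse of the order of Zbtb32 in the 30M libraries.

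**Figure D4:**
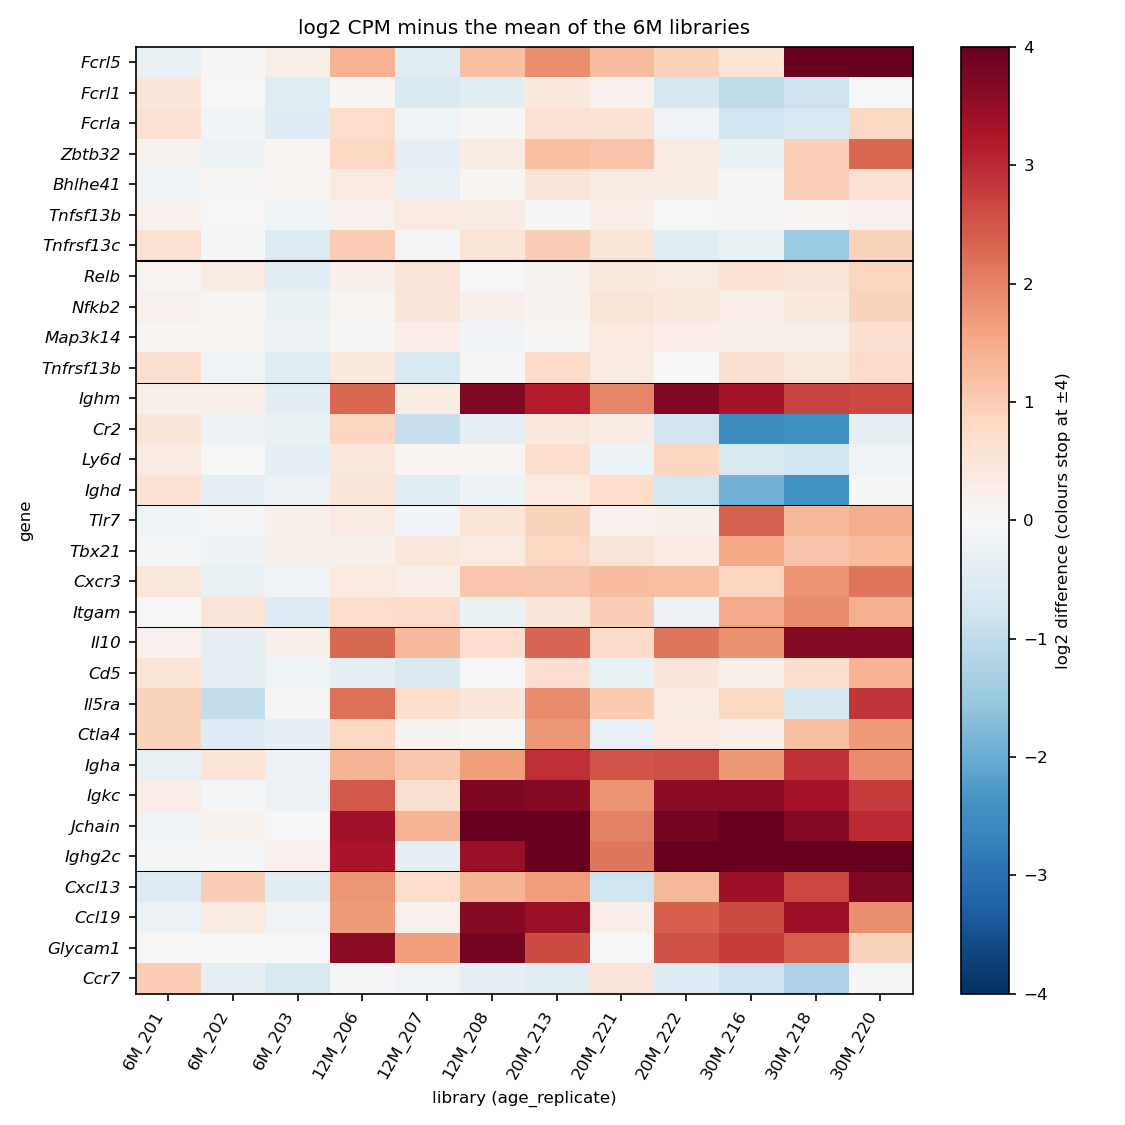
Log2 CPM minus the mean of the 6M libraries (colour, red higher and blue lower, stopping at 4 in either direction) for the 7 genes above the thick line and for named genes of the BAFF and APRIL, B cell, age-associated B cell, B-1 cell, plasma cell and lymphoid organiser lists below it (rows), in each library (columns). Fcrl5 is deep red in 30M_218 and 30M_220 alone. Il10 is reddest in these and paler red in the other libraries of 12M, 20M and 30M. It is at 2.29 in 12M_206, 2.32 in 20M_213 and 2.15 in 20M_222. Tbx21 and the plasma cell genes are red in all 3 libraries of 30M. The plasma cell genes are also red in 12M and 20M libraries, with Jchain at 4.36 in 12M_208 and 4.40 in 20M_213.

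The genes whose log2 levels over the 12 libraries were most like those of a member, among 14252 genes, were named by their Pearson r. For Fcrla they were Pax5 (r = 0.939), H2-DMb2 (0.937) and Bank1 (0.927), for Fcrl1 Cd79b (0.905), H2-Ob (0.900) and Fcer2a (0.888), and for Tnfrsf13c Ms4a1 (0.944), Cxcr5 (0.901) and Prkag2os2 (0.879). Pax5, Cd79b and Ms4a1 are among the genes that define B cells. For Fcrl5 the nearest were Slc22a4 (r = 0.912), Csf1 (0.906) and Dok1 (0.896). Csf1, the macrophage growth factor, stood at 62.3, 92.6 and 78.2 CPM at 30M and 48.7, 49.0 and 42.8 CPM at 6M. For Bhlhe41 they were Smim27 (0.933), Mrgprf (0.893) and Slc22a4 (0.892), for Zbtb32 Il21r (0.970), Il27ra (0.904) and Septin1 (0.891), and for Tnfsf13b Shroom4 (0.892), Spats1 (0.879) and Sh3bp5 (0.871). Between members, Fcrl5 was most like Bhlhe41 (r = 0.916), then Zbtb32 (0.801), and had r = -0.07 with Fcrl1. These coefficients are descriptions over libraries that share depth and GC trends and carry no p.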

How the data were processed

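Per the labels' protocols, ISOGEN II was used to take total RNA, which was poly-A selected and sequenced as paired ends on an Illumina platform. FastQC 0.11.7, Trimmomatic 0.38, HISAT2 2.1.0 and featureCounts were run with GRCm38 (mm10), per the submitters' processing notes. For the annotation release and strand setting, not given in the sources used here, no assumption was made. The table deposited by the authors holds raw counts per gene without normalization, and coordinates are printed as it gives them.

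Counts were fitted with edgeR 4.0.16 in R 4.3.3, by its robust quasi-likelihood method with TMM scaling and filterByExpr on age, all 12 libraries in 1 fit, Benjamini-Hochberg adjustment over 18407 genes and a threshold of 0.05. The fit was tested on simulated data. DESeq2 1.42.0 was an alternative. Log2 CPM used a prior count of 2, and permutation tests drew 100000 resamples. Likeness was taken among tested genes with a mean of at least 1 CPM, leaving out predicted genes and antigen receptor segments. Exon lengths came from GENCODE M21 (GRCm38).

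Members and the 16 gene lists were chosen with earlier results of these data known. One B cell gene is not reported here and, as a change made with the results known, the B cell list and mean leave it out. Named genes are the members, up to 4 genes per list with the smallest p at 30M against 6M, the other FCRL genes, Tnfsf13, Tnfrsf13b and Tnfrsf17, and the 3 genes most like each member. The labels do not say that each library is a separate animal, so the p-values cover only how far libraries spread, which may be technical, and no pair within an age was a duplicate (chi-square per gene 6.66 to 49.9).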

Additional observations from a re-analysis of the deposited data

How the results depend on the processing

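No paired analysis was possible because the ages share no replicate numbers. The count of members called at 30M against 6M (1) was 0 with no filter on low counts, with a term for the 3 GC-trend libraries, without those libraries and with only the 2 ages fitted, where Fcrl5 itself did not pass the filter, and 0 to 1 with 1 library left out. At 30M against 20M (0) DESeq2 gave 1, Fcrl5. For the slope (1) it was 1 to 3 with 1 library left out. The B cell count (0) was 1 without the GC-trend libraries, with only the 2 ages and in DESeq2, and 0 to 1 with a library left out. The age-associated B cell count (4) was 7 in DESeq2 and 0 to 4 with a library left out, and the B-1 count (1) was 0 without the GC-trend libraries or with only the 2 ages, and 0 to 1 with a library left out. The plasma cell count (3) was 1 with no filter or without the GC-trend libraries, 5 with only the 2 ages or in DESeq2, and 1 to 5 with a library left out. The lymphoid organiser count (1) was 0 with no filter, 2 with only the 2 ages, 3 in DESeq2, and 0 to 1 with a library left out. The monocyte and macrophage count (6) was 5 to 8 with a library left out. The cause was not tested.

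Relations to the B cell genes without the 2 farthest libraries were r = 0.903 for Fcrl1, 0.9504 for Fcrla, 0.638 for Zbtb32 and 0.801 for Tnfrsf13c, and without the GC-trend libraries 0.951, 0.976, 0.445 and 0.821 for the same genes, none then past the threshold. With 8 libraries left these tests have few permutations within ages. No called value changed sign under any setting run. At this depth 1 CPM is little more than 10 counts, so the 6M levels of Fcrl5 rest on 4 to 6 counts per library.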
